A study of Homo sapiens with 4 samples.

Results

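The genes described here are 52 nucleolar factors that make ribosomes, out of 20033 protein-coding genes on chromosomes 1 to 22, X and Y. They were taken by name from a list, and each matched 1 gene of GENCODE release 44. In the study, RNA polymerase II (Pol II) was immunoprecipitated from the chromatin of SK-OV-3, a line derived from a human ovarian cancer, and the recovered DNA was sequenced (ChIP-seq). One culture carried shRRN3, a hairpin RNA that silences RRN3, and the other carried shLacZ, a control hairpin against a bacterial gene. The RRN3-silenced cells were made stable with a lentiviral hairpin vector. Several RRN3 hairpins were designed, and neither the one behind these data nor whether a line is a clone or a pool is stated. There was 1 list of Pol II peaks per hairpin, so the error between replicates is unknown and no p-value was computed.

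Ribosomes are assembled in the nucleolus, where RNA polymerase I copies the ribosomal DNA with the help of RRN3. Small nucleolar RNAs guide the modification of the new ribosomal RNA, box C/D particles for methylation and box H/ACA particles for pseudouridine, and large protein assemblies then fold and cleave it into the small and large subunits. The genes of these factors are themselves transcribed by Pol II. The question was thus how Pol II lay over them when the partner of RNA polymerase I was silenced. By role, 8 of the genes belong to the small nucleolar ribonucleoprotein (snoRNP) core, 6 are nucleolar scaffold or ribosomal DNA-linked proteins, 18 serve the small subunit and 20 the large subunit.

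The shLacZ list held 3920 peaks on the chromosomes used and the shRRN3 list held 14322, so the main counts are given beside the share of all protein-coding genes. Peaks carry a MACS score, which depends on depth, and scores are therefore compared within a list, as the percentile among its peaks. Whether the longer list reflects deeper sequencing, stronger enrichment or the hairpin cannot be told apart, and RRN3 itself had no start peak in either list. No peak means that none passed the authors' threshold, not that Pol II was absent.

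A peak was counted at a start when its midpoint lay within 1 kb of the 5' bound of the annotated gene. In shLacZ, 9 of the 52 nucleolar factors had one, or 17.3% (95% interval 8.23% to 30.3%), against 7.56% of all protein-coding genes. In shRRN3, 24 had one, or 46.2% (32.2% to 60.5%), against 23.7% of all. The intervals are exact binomial (Clopper-Pearson) intervals that cover counting error over genes and nothing else. Among protein-coding genes as long as the middle of these genes, 9243.75 to 31371 bp, the shares were 8.15% and 25.8%. Counting just the top 3920 peaks of shRRN3 by score, 8 of the 52 had a start peak, or 15.4%, against 9.74% of all genes, so the rise in number between the lists rested on peaks below that rank.

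Start peaks in both lists were found at 7 nucleolar factors, namely NOP56, NOP58, NOP10, NPM1, WDR75, NAT10 and BRIX1. That is 13.5%, against 6.41% of all genes. In shRRN3 alone there were 17, or 32.7% against 17.3%, and in shLacZ alone there were 2, UTP15 and MRTO4, or 3.85% against 1.15%. The remaining 26, or 50% against 75.1%, had a start peak in neither list. Of the 9 with a shLacZ start peak, 7 also had one in shRRN3, or 77.8% (interval 40% to 97.2%), beside 84.8% over all genes.

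**Figure D1:**
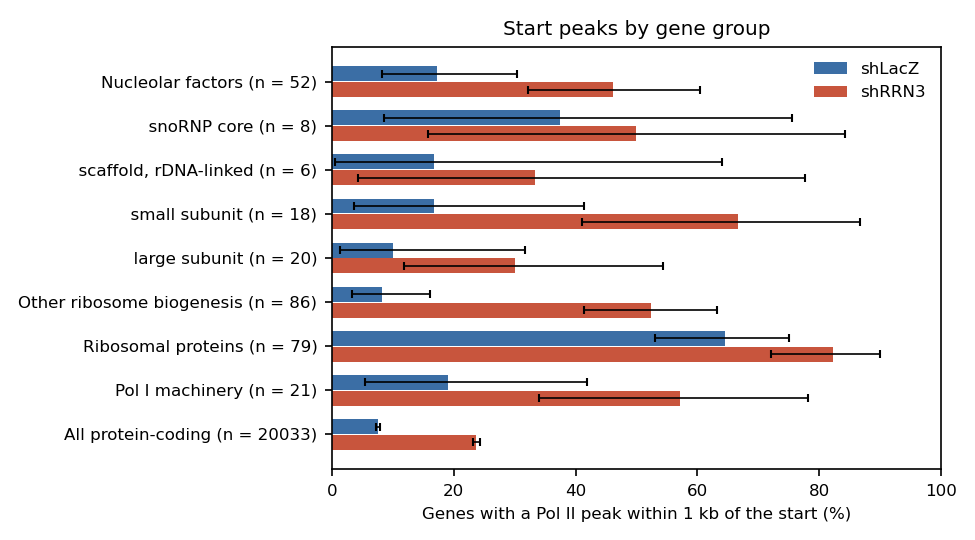
Share of genes, in percent, with a Pol II peak within 1 kb of the annotated start in shLacZ (blue) and shRRN3 (red), by gene group, with the number of genes in each. Bars are shares and lines are exact 95% binomial intervals over genes, from 1 library each. The 52 nucleolar factors stood at 17.3% and 46.2%, all protein-coding genes at 7.56% and 23.7%, and ribosomal protein genes at 64.6% and 82.3%.

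The choice of start mattered for several of these genes. At 10 of the 52, the start of the main transcript (MANE Select, the transcript that the annotation projects agreed to represent each gene) lay more than 1 kb inside the annotated span. NCL is the gene of nucleolin, an abundant RNA-binding protein of the nucleolus, and its main start lay 19157 bp inside. The offset was 8482 bp at IMP3, 4876 bp at GNL3, 1776 bp at NIP7, 1358 bp at UTP4 and 103125 bp at WDR12. With MANE Select starts, 12 nucleolar factors had a start peak in shLacZ, or 23.1% against 8.18% of all genes, and 27 had one in shRRN3, or 51.9% against 25.4%. GNL3, IMP3 and UTP4 joined those marked in both lists, making 10. NCL and NIP7 joined those marked in shRRN3 alone, and RRP12 left them, since its peak lay 729 bp before the annotated span and 614 bp from the start of PGAM1 on the other strand. The peaks at GNL3 and UTP4 lay near other starts too, 218 and 85 bp from that of PBRM1 and 46 and 80 bp from that of CHTF8, in shLacZ and shRRN3 respectively.

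Among the role groups, the snoRNP core had the highest share in shLacZ, with start peaks at 3 of 8 genes, or 37.5%. The interval, 8.52% to 75.5%, covers the share of each other group. In shRRN3 there were 4 of 8, or 50% (15.7% to 84.3%). All protein-coding genes stood at 7.56% and 23.7%. NOP56 and NOP58 encode the paired scaffold proteins of box C/D particles. At NOP56 (chromosome 20, 2652593 to 2658393, plus strand), the shLacZ peak spanned 2652152 to 2652839 with a score of 154.12, at percentile 91.5 of its list. The shRRN3 peak spanned 2652025 to 2652861 with a score of 249.6, at percentile 96.2. At NOP58 (chromosome 2, 202265736 to 202303661, plus strand), the peaks spanned 202265529 to 202266133 with a score of 125.96 in shLacZ and 202265446 to 202266139 with a score of 215.85 in shRRN3, at percentiles 87.1 and 94.8. Both genes thus stood in the upper part of both lists. FBL, the methyltransferase of the same particles, had no peak over the gene or 2 kb past it in either list, and the nearest midpoint lay 400975 bp from its start in shLacZ and 400905 bp in shRRN3.

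The box H/ACA particles are built on DKC1, the pseudouridine synthase, with GAR1, NHP2 and NOP10. NOP10 had a start peak of 318 bp and score 65.88 in shLacZ (chromosome 15, 34342871 to 34343188) and of 409 bp and score 67 in shRRN3 (34342909 to 34343317). These ranked at percentiles 50.5 and 40.5. NHP2 had a start peak in shRRN3 (chromosome 5, 178153726 to 178154258, score 59.05, percentile 26.3). DKC1 and GAR1 had none. RRP9, which belongs to the U3 particle, had none either, and its nearest midpoints lay 53836 bp and 47882 bp away. In the snoRNP core, 4 of 8 genes had a peak somewhere and 4 had no peak in either list, beside 37.5% and 62.5% of all genes.

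Among the scaffold and ribosomal DNA-linked proteins, NPM1 had start peaks in both lists. NPM1 encodes nucleophosmin, a chaperone of the outer nucleolar layer. Its shLacZ peak (chromosome 5, 171387693 to 171388264) scored 119.09, at percentile 85.9, and its shRRN3 peak (171387295 to 171388089) scored 178.47, at percentile 91.7. The midpoints lay 862 bp and 576 bp past the annotated 5' bound, and 129 bp past and 157 bp before the MANE Select start. NPM1 has processed pseudogenes, and how reads shared with them were treated is not given in the sources used here. NOLC1, a chaperone of snoRNPs, had a start peak in shRRN3 (chromosome 10, 102151909 to 102152587, score 114.09, percentile 77.9), and the nearest shLacZ midpoint was 96063 bp away. TCOF1, which encodes the treacle protein of ribosomal DNA transcription, and the helicase gene DDX21 had no peak. LYAR had 1 peak, 5166 bp inside the gene in an intron, in shRRN3 (score 50.94, percentile 3.76).

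The small subunit genes showed the largest step in percentage points in this grouping, with start peaks at 3 of 18 in shLacZ and at 12 of 18 in shRRN3. The shares were 16.7% (interval 3.58% to 41.4%) and 66.7% (41.0% to 86.7%), and with so few genes the intervals touch. Over all genes the shares were 7.56% and 23.7%. At MANE Select starts the step was smaller, from 5 to 12 of 18, or 27.8% and 66.7%, beside 8.18% and 25.4% of all genes. WDR75, an early factor of the small subunit processome, had the highest start score of the 52 in shRRN3. Its peak there (chromosome 2, 189440539 to 189441683) was 1145 bp wide and scored 258.04, at percentile 96.5. The shLacZ peak (189441340 to 189441899) was 560 bp wide and scored 54.72, at percentile 22.2. Over all 1284 protein-coding genes with a start peak in both lists, 75.9% likewise had the higher percentile in shRRN3, as did 6 of the 7 nucleolar factors. Percentiles rank peaks within lists of unlike length, so a higher one in shRRN3 does not by itself mean more Pol II. NAT10, which acetylates the RNA of the small subunit, was high in both, with scores of 121.37 in shLacZ (chromosome 11, 34105126 to 34105686) and 220.22 in shRRN3 (34104643 to 34105945), at percentiles 86.4 and 95. A further shRRN3 peak of 502 bp and score 59.84 followed it inside NAT10.

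UTP4, UTP15, WDR43, WDR75 and HEATR1 belong to the complex that binds the nascent ribosomal RNA first. At MANE Select starts, each of the 5 had a peak in at least 1 list, beside 55.8% of the 52 genes and 26.6% of all protein-coding genes, and the complex was picked out after the values were seen. UTP4 and WDR75 had one in both, WDR43 and HEATR1 in shRRN3, and UTP15 in shLacZ. The scores were modest outside WDR75. The peak at WDR43 scored 60.16 (percentile 28.9) and that at HEATR1 scored 53.44 (percentile 12.4). UTP4 had peaks at its main start with scores of 64.81 in shLacZ and 62.93 in shRRN3, and a further shRRN3 peak of score 95.29 that lay 743 bp before the annotated span.

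UTP15 was marked in the control list. The shLacZ peak (chromosome 5, 73565617 to 73565963) was 347 bp wide and scored 59.31, at percentile 36.4. The nearest shRRN3 midpoint lay 58862 bp from the start. The same peak lay 123 bp from the start of ANKRA2 on the other strand, so it cannot be given to 1 of the genes by position. MRTO4, a large subunit factor that resembles the stalk protein P0, was the other. Its shLacZ peak (chromosome 1, 19251395 to 19251932) was 538 bp wide and scored 56.19, at percentile 26.9. The nearest shRRN3 midpoint was 234242 bp away, and the start of EMC1 lay 111 bp from the shLacZ midpoint. Both of these peaks ranked below the median of their list, and both lay close to a start on the opposite strand.

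IMP3, IMP4 and MPHOSPH10 form a complex on the U3 particle. IMP3 had peaks at its main start in both lists, of 631 bp and score 56.15 in shLacZ (chromosome 15, 75640027 to 75640657) and of 864 bp and score 159.93 in shRRN3 (75640001 to 75640864), at percentiles 26.8 and 89.3. MPHOSPH10 had one in shRRN3 (score 62.68), whose midpoint was nearer to the start of MCEE, at 37 bp, than to its own, at 108 bp. IMP4 had none. Other small subunit genes with a start peak in shRRN3 alone were UTP20 (score 99.2), UTP3 (88.36), NOB1 (77.59), EMG1 (73.65), BYSL (72.63) and RRP12 (52.82). NOB1 is the nuclease that makes the final cut of the small subunit RNA and EMG1 a methyltransferase of that RNA. EMG1 and BYSL each carried 2 start peaks there. The EMG1 midpoints lay 134 bp from the start of PHB2 and 39 bp from another coding start, beside 267 bp and 47 bp from its own. The higher-scoring BYSL peak lay 99 bp from another coding start and 261 bp from its own. NOP14, DDX10 and DDX47 had no peak in either list.

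**Figure D2:**
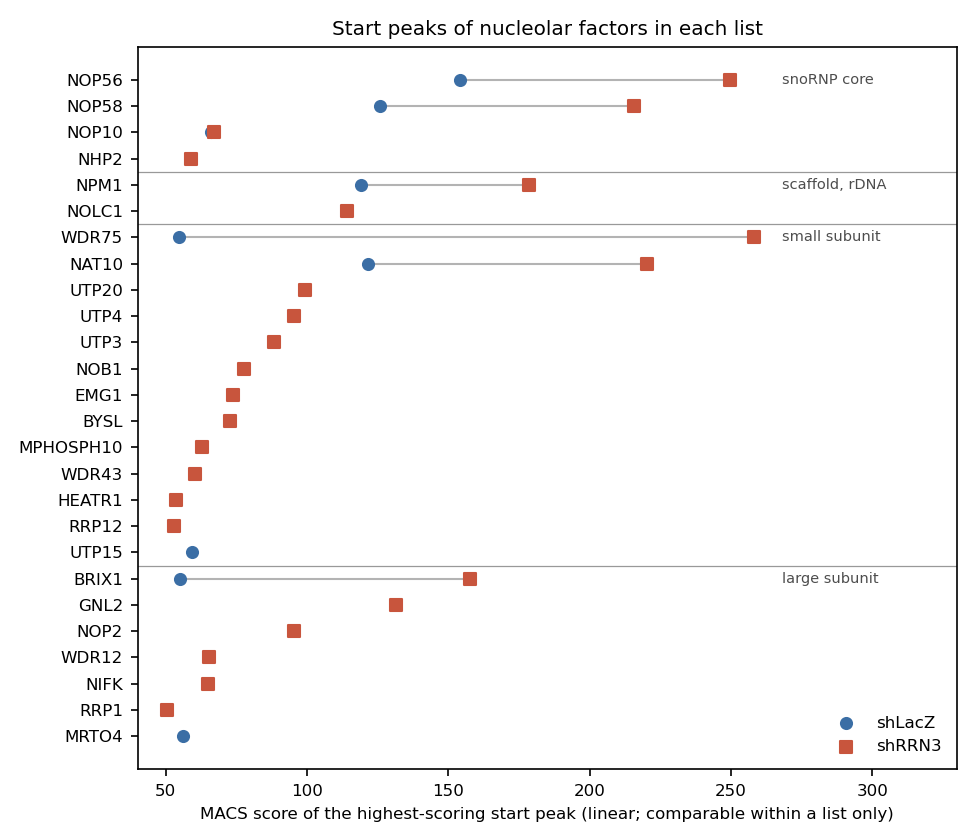
MACS score of the highest-scoring peak within 1 kb of the annotated start, for the 26 nucleolar factors that had one, with circles for shLacZ, squares for shRRN3 and a grey line where both lists had one. Scores depend on depth and are comparable within a list only. In shRRN3, WDR75 (258.04), NOP56 (249.6), NAT10 (220.22) and NOP58 (215.85) lay highest, and in shLacZ NOP56 (154.12), NOP58 (125.96), NAT10 (121.37) and NPM1 (119.09).

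The large subunit genes had start peaks at 2 of 20 in shLacZ and at 6 of 20 in shRRN3. The shares were 10% (interval 1.23% to 31.7%) and 30% (11.9% to 54.3%). Over all genes they were 7.56% and 23.7%, which lie within these intervals. BRIX1 had a start peak in both lists. The shLacZ peak (chromosome 5, 34915217 to 34915850) scored 55.17, at percentile 23.7, and the shRRN3 peak (34915067 to 34915953) scored 157.55, at percentile 88.9. GNL2, a nucleolar GTPase, had the strongest start peak of those found in shRRN3 alone (chromosome 1, 37595635 to 37596163, score 131.38, percentile 83.5), with the nearest shLacZ midpoint 121409 bp away. NOP2, a methyltransferase of the large subunit RNA, followed with a score of 95.29 (chromosome 12, 6568106 to 6568591). WDR12 (65.15), NIFK (64.86) and RRP1 (50.25) were weaker, and the RRP1 peak stood at percentile 0.796, near the lowest score listed. The NIFK midpoint lay 13 bp from the start of TSN and 179 bp from its own. The WDR12 midpoint lay 515 bp before the annotated span, and NBEAL1 starts on the other strand within 1 kb of that 5' bound. By position, these 2 peaks cannot be given to 1 gene.

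At MANE Select starts, 2 further large subunit genes stood out. GNL3, which encodes the GTPase nucleostemin, had peaks in both lists (chromosome 3, 52685449 to 52685949, score 103.27 in shLacZ, and 52685667 to 52686338, score 117.14 in shRRN3). NIP7 had one in shRRN3 (chromosome 16, 69339377 to 69340006, score 141.77, percentile 85.8), 108 bp from the start of COG8. WDR12, PES1 and BOP1 form one complex that is needed to process the large subunit RNA. WDR12 had a shRRN3 peak at its main start (score 70.1), 649 bp from the start of CARF. PES1 had a peak in an intron in shRRN3 (score 62.59), 5861 bp before its main start, and BOP1 had no peak. NOP16, RRP1B, RRS1, DDX18, DDX56, NOC2L and NOC3L also had none in either list.

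In all, 18 of the 52 genes had no peak at the start, in the body or within 2 kb past the end in either list, or 34.6%, against 62.5% of all protein-coding genes. At the 7 genes marked at the annotated start in both lists, the shRRN3 peak overlapped the shLacZ peak and was the wider one in 7 of 7, by a median of 223 bp. Over the 1284 protein-coding genes marked in both lists, the shRRN3 peak was wider at 82.4%, by a median of 211 bp. The shRRN3 midpoint lay farther upstream in 7 of 7, with a median shift of -84 bp along the strand, whereas over all such genes this held for 55.1% and the median shift was -14 bp. With MANE Select starts the shRRN3 peak was wider at 10 of 10 genes and farther upstream at 8 of 10, GNL3 and UTP4 being the exceptions, beside 54.7% of all. At WDR75 the shRRN3 peak began at 189440539 and the shLacZ peak at 189441340, so that most of the wider peak lay before the narrower one.

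In shRRN3 the median score percentile of the start peaks marked in both lists was 94.8 (lowest 40.5, highest 96.5), while that of the 17 found in shRRN3 alone was 47.8 (0.796 to 83.5). Over all protein-coding genes the corresponding medians were 83.7 and 57.7. In shLacZ the median was 85.9 for the 7 genes, with a range of 22.2 to 91.5 in which WDR75 and BRIX1 were lowest, and 60.9 over all genes marked in both lists. Over the highest-scoring start peak of each gene that had one, the median percentile was 50.5 in shLacZ (9 genes) and 58.6 in shRRN3 (24 genes), beside 57.8 and 65.1 over all genes. The median width was 561 bp and 546.5 bp, beside 489 bp and 650 bp. The median midpoint lay 95 bp past the start in shLacZ, beside 41 bp over all genes, and at -92 bp in shRRN3, negative being upstream, beside 9 bp. The sign in shLacZ turned with the window, to -1.5 bp within 0.5 kb and to -66.5 bp with MANE Select starts, where shRRN3 stood at -107 bp. Near the 1 kb limit lay the peaks of NPM1 at 862 bp in shLacZ, of UTP4 at -743 bp and of RRP12 at -729 bp in shRRN3, and just outside it those of UTP4 at 1343 bp and 1377 bp and of NIP7 at 1695 bp.

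**Figure D3:**
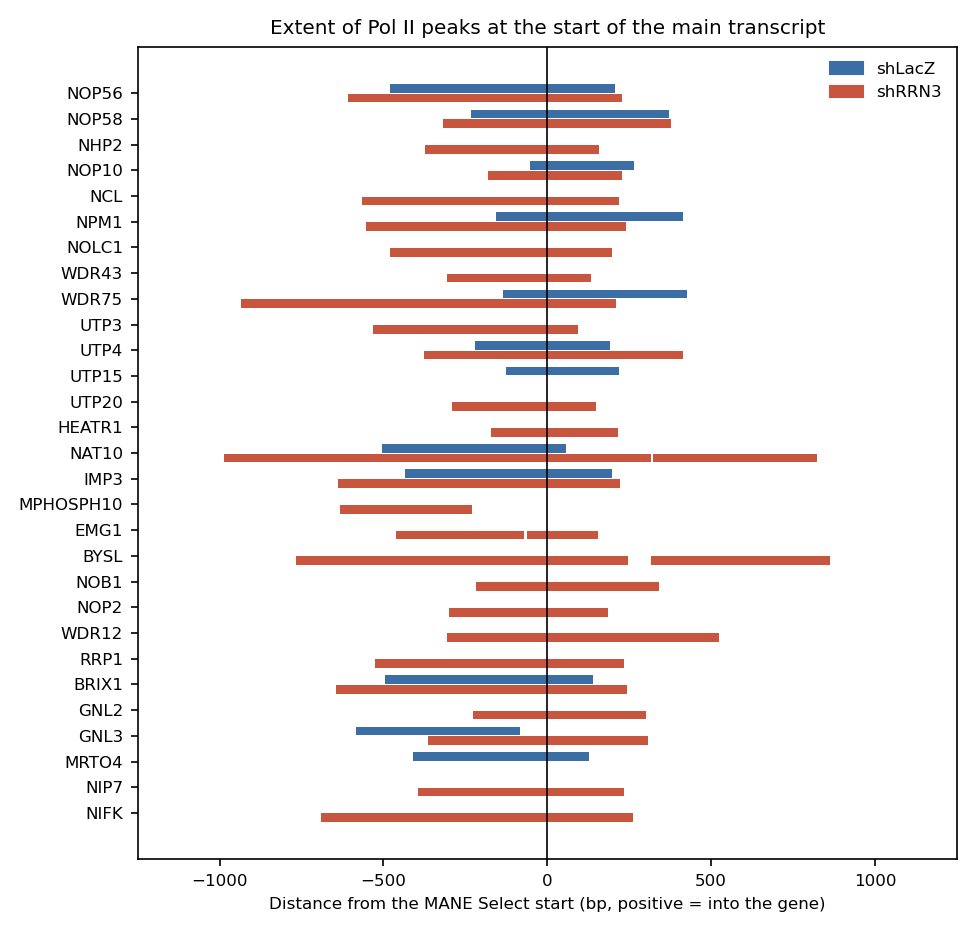
Extent of each peak whose midpoint lay within 1 kb of the MANE Select start of a nucleolar factor, with distance in bp along the strand and positive values inside the gene. Upper bars (blue) are shLacZ and lower bars (red) are shRRN3. At the 10 genes with both, the red extent was the wider, and at WDR75 it lay largely upstream of the blue one.

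Peaks in the gene body, meaning a midpoint more than 1 kb past the annotated start, were found at 4 of the 52 genes in shLacZ, or 7.69% against 5.76% of all genes, and at 11 in shRRN3, or 21.2% against 18.1%. Among genes of like length the shares were 3.24% and 11.9%. Of these peaks, 3 of 4 and 6 of 11 lay at the MANE Select start of the same gene, as described above for IMP3, GNL3, UTP4, NCL, WDR12 and NIP7. The remaining body peaks lay in introns. These were a 190 bp peak of NPM1 in shLacZ (score 51.78) and, in shRRN3, peaks in NOP58 (score 56.54), LYAR, PES1, EBNA1BP2 (score 76.68) and BRIX1. The BRIX1 peak, 8486 bp from the start (34923989 to 34924338), was the highest-scoring of them at 138.62, percentile 85.1, and no shLacZ peak overlapped it. The peaks in PES1 and EBNA1BP2 lay 5861 bp and 34831 bp before the MANE Select start. They were thus inside the annotated span but outside the main transcript.

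Gene ends were of interest because the study asked whether RRN3 affects termination by Pol II. A midpoint within 2 kb past the end was found at 3 of the 52 genes in shLacZ, or 5.77% (interval 1.21% to 15.9%) against 1.31% of all genes. In shRRN3 there were 8 genes, or 15.4% (6.88% to 28.1%) against 4.54%. Counting just the top 3920 shRRN3 peaks, 1 of the 52 genes was left, or 1.92% against 1.83% of all genes.

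NCL had end peaks in both lists. In shLacZ the peak spanned 231452967 to 231453813 on chromosome 2, with a width of 847 bp, a score of 102.72 and percentile 81.1, and 283 of its bases lay inside the gene. In shRRN3 there were 2 peaks, at 231452436 to 231453682 (1247 bp, score 79) and at 231451920 to 231452332 (413 bp, score 81.89). Their midpoints lay 472 bp and 1405 bp past the end, against 141 bp in shLacZ. At the main start of NCL, shRRN3 had a peak (231464265 to 231465049, score 78.42, percentile 54.4) and shLacZ had none. In the control list NCL was thus marked past its end and not at a start, while in the knockdown list it was marked at both places.

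NPM1 also had end peaks in both lists, and they did not overlap. The shLacZ peak (171412277 to 171412502, score 81.59) had its midpoint 579 bp past the end and the shRRN3 peak (171413618 to 171413931, score 79.58) 1964 bp past it, close to the 2 kb limit. NOP58 had an end peak in shLacZ (202304542 to 202304736, score 50.89, 978 bp past the end) and none in shRRN3. The other 6 genes had one in shRRN3. The strongest was past PPAN (chromosome 19, 10112416 to 10113763), which was 1348 bp wide and scored 286.37, at percentile 97.3. PPAN is followed on the same strand by P2RY11, with which it forms an annotated joint gene. The midpoint lay 1396 bp past the P2RY11 start, so by position the peak cannot be given to the end of PPAN alone. PPAN had no start peak in either list.

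The end peaks in shRRN3 past IMP3 (75637406 to 75637904, score 100.21), NIFK (121725737 to 121726194, score 94.79), GNL3 (52695146 to 52695598, score 87.16) and BRIX1 (34926749 to 34927005, score 53.77) had midpoints 1430, 980, 875 and 881 bp past the end. Of the 3 end peaks in shLacZ, 1 was overlapped by a shRRN3 peak. Of the 9 in shRRN3, 1 was overlapped by a shLacZ peak. The shRRN3 list held 14322 peaks and the shLacZ list 3920, so many shRRN3 peaks lack a shLacZ partner anywhere in the genome. How often the end peaks of all protein-coding genes overlapped was not tested. With 1 library per hairpin, whether Pol II shifted at the ends of these genes was therefore not tested.

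**Figure D4:**
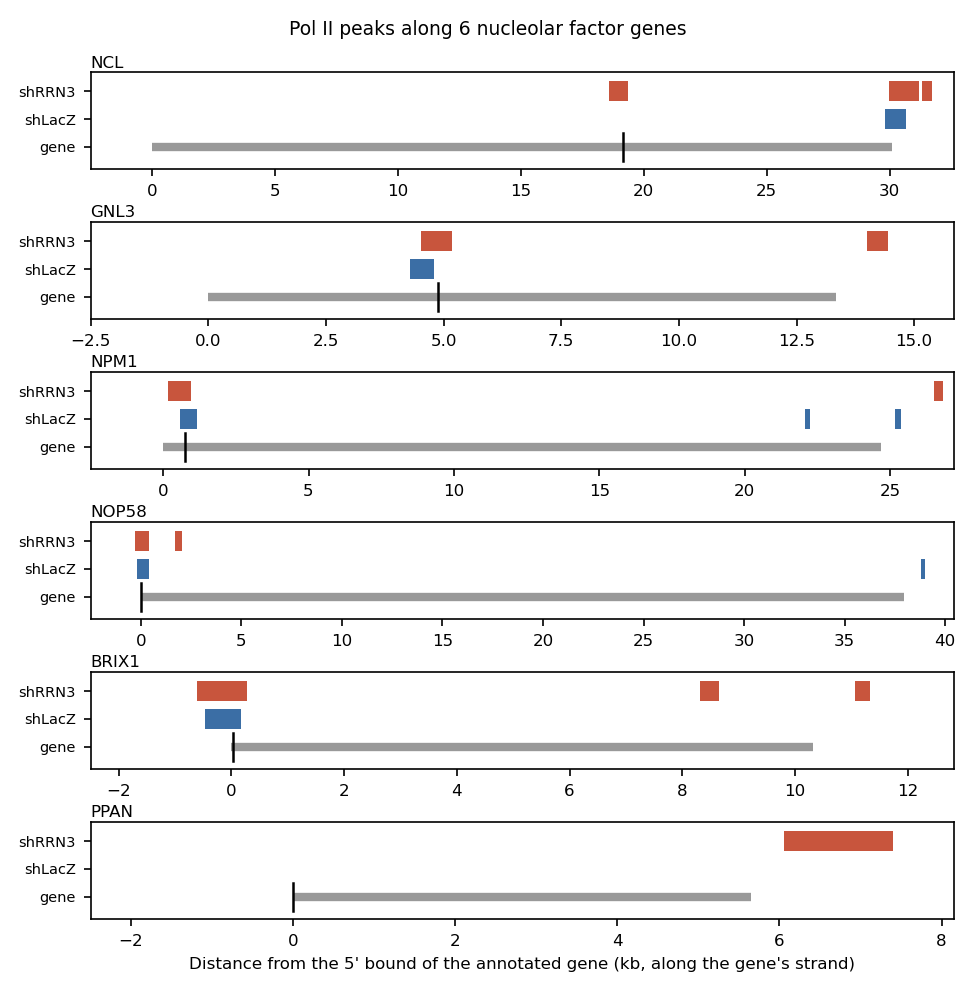
Pol II peaks along 6 nucleolar factor genes, with distance in kb from the annotated 5' bound along the gene's strand. The grey bar is the annotated gene, the black tick the MANE Select start, and coloured blocks are peaks of shLacZ (blue) and shRRN3 (red). NCL had peaks past its end in both lists and a peak at its main start in shRRN3, and PPAN had a 1348 bp peak past its end in shRRN3.

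Several properties of these genes come from the annotation and not from the peaks. Another protein-coding start on the opposite strand lay within 1 kb at 19 of the 52 genes, or 36.5% (interval 23.6% to 51.0%), against 13.4% of all protein-coding genes. In shRRN3, 7 of the 19 genes with such a neighbour had a start peak, or 36.8%, beside 48.7% of all genes with one, and 17 of the 33 without had a start peak, or 51.5%, beside 19.9%. In shLacZ the numbers were 3 of 19 and 6 of 33, or 15.8% and 18.2%, beside 14.1% and 6.55%. This split was made after the values were seen.

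Introns of 7 of the 52 genes carry annotated small nucleolar RNA genes, 25 in all, so that these genes make both the protein and RNA parts of the machinery. They are NOP56, NOP58, DKC1, NCL, WDR43, PPAN and GNL3. At MANE Select starts, 5 of the 7 had a peak in shRRN3 and 3 of the 7 in shLacZ, DKC1 and PPAN having none. The shares were 51.9% and 23.1% of the 52 genes and 25.4% and 8.18% of all, and 7 genes are too few to set apart. None of the 16 shLacZ or 47 shRRN3 peaks assigned to the 52 genes overlapped an annotated small nucleolar RNA gene. How often the peaks of all genes did so is not given here.

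The promoters were then read from RefSeq (GRCh38.p14), as the 250 bases before and 50 bases from each start, and 43 of the 52 genes matched. The 9 not matched were NOP58, NOLC1, TCOF1, MPHOSPH10, RRP12, BOP1, RRP1B, RRS1 and DDX18. The word CACGTG, the palindromic E-box that MYC and related proteins can bind, was found in 16 of 43 promoters, or 37.2% (interval 23% to 53.3%). Of 15345 promoters of protein-coding genes, 8.89% held it. In the 43 promoters it occurred 18 times, and 15 of these began within 50 bases of the start, from -16 to 35 with the start base as 0. Over all promoters 36.4% of the words did, and the 50-base limit was chosen after the positions were seen. The word was held by 8 of the 24 promoters with a shRRN3 peak at the MANE Select start and by 8 of the 19 without, or 33.3% and 42.1%. Split by a peak at the annotated 5' bound, which for several genes lies away from the promoter read here, it was held by 8 of 20 and 8 of 23.

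The 6 promoters below show the word in capitals, in genes with start peaks in both lists (NAT10, at chr11:34105379-34105678, plus strand, and NOP10, at chr15:34343087-34343386, minus strand), in shRRN3 alone (GNL2, at chr1:37595888-37596187, minus strand), in shLacZ alone (MRTO4, at chr1:19251555-19251854, plus strand) and in neither (FBL, at chr19:39846330-39846629, minus strand). NOP56 (at chr20:2652382-2652681, plus strand), the strongest start in shLacZ, lacks the word and is shown for contrast. Each runs 5' to 3' on the gene's strand, and the start follows the first 250 bases.
NAT10: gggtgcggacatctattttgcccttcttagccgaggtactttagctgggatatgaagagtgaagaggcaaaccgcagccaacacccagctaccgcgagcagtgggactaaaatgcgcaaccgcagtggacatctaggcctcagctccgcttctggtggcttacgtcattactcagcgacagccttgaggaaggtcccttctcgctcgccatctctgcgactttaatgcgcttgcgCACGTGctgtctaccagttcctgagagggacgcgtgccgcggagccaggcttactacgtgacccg
NOP10: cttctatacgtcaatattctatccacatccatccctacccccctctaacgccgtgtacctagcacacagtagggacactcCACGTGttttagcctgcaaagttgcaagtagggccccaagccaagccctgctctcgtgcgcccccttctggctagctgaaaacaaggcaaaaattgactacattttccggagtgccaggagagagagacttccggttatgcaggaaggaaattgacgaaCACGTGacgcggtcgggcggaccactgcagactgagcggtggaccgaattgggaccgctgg
GNL2: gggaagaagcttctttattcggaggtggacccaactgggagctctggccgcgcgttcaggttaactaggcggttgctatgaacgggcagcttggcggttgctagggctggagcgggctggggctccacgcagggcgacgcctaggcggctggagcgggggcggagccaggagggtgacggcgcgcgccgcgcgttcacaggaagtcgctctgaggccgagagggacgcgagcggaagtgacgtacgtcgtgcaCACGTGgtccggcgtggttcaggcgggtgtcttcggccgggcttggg
MRTO4: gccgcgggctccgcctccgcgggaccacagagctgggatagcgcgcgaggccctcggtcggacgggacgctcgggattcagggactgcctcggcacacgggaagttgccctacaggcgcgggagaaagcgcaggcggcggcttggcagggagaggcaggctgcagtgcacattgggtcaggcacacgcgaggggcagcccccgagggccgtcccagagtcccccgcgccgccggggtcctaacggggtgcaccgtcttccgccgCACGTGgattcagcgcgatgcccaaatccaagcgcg
FBL: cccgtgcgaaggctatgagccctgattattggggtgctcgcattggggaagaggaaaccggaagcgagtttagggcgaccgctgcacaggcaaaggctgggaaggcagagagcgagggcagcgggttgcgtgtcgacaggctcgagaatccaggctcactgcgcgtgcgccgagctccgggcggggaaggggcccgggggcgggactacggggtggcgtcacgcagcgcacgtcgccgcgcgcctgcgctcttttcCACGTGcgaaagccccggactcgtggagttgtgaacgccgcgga
NOP56: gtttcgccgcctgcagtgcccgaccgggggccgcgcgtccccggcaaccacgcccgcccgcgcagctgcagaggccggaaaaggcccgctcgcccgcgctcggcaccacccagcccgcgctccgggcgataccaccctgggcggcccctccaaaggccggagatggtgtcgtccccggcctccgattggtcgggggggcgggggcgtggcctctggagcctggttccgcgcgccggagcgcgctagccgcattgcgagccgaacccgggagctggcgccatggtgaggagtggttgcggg

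Other words were searched exactly on both strands. No word holds another within it, but neighbouring matches can share bases. CCGGAAG, the core that ETS factors bind, was in 15 of 43 promoters, or 34.9% against 14.4% of all. AAGATGGCG, a YY1 core, was in 4 (9.30% against 2.80%), GCGCATGCG, an NRF1 core, in 3 (6.98% against 2.73%) and CTCGCGAGA in 2 (4.65% against 1.08%). CCAAT was in 17 (39.5% against 36.6%) and GGGCGG, a GC box, in 30 (69.8% against 59.2%). TATAAA was in 1, UTP20 (2.33% against 9.63%). The median GC share was 64.0% in the 43 promoters and 63.0% over all. A match is a string of letters and shows no binding.

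Related gene groups gave the following counts. Of 86 other ribosome biogenesis genes, 7 had a start peak in shLacZ, or 8.14% (interval 3.34% to 16.1%), and 45 in shRRN3, or 52.3% (41.3% to 63.2%), and each of the 7 was among the 45. Their promoters held CACGTG in 27 of 76 cases, or 35.5%, close to the 37.2% of the 52 genes described here. The highest score in both lists was at WDR74, where the peak also covered the small nuclear RNA gene RNU2-2P. Of 79 cytosolic ribosomal protein genes, 51 and 65 had a start peak, or 64.6% and 82.3%, with RPL41 highest in both lists, while CACGTG was in 3 of 63 promoters, or 4.76%. Of 21 genes of the RNA polymerase I machinery, 4 and 12 had one, or 19.0% and 57.1%, with TAF1D highest in shLacZ and POLR2K in shRRN3. The shLacZ share of the nucleolar factors thus lay far below that of ribosomal protein genes, with intervals that did not meet (8.23% to 30.3% and 53% to 75%). These are counts over genes in 1 library per hairpin.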

How the data were processed

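Pol II ChIP-seq was analysed from 1 shLacZ and 1 shRRN3 library, and the matching inputs were not used here. Sequencing used a BGISEQ-500. The deposited files list each peak's chromosome, start, end, name and score, and the authors called peaks in each library with MACS. The deposited score was taken as 10 times the −log10 of the p-value, since the lowest values are 50.03 and 50. Aligner, version, threshold, duplicates and use of input are not given in the sources used here. The submitters' processing notes name hg38, and the sequence versions are those of GRCh38. The depth is unknown.

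The genes, lists and roles were chosen with earlier results of these data known, and complexes were named after the values were seen. Genes came from GENCODE 44. A peak was assigned by its midpoint, to the start (within 1 kb), the body or the 2 kb past the end. Of several start peaks the highest-scoring was used. Shares have exact 95% intervals. Every gene was accounted for by name, and coordinates were given for the 2 highest-scoring start peaks per role in each list, start peaks in shLacZ alone and peaks past an end. Further coordinates were added after the values were seen, and 1 end peak in shRRN3 is counted but not reported here. Alternatives were other windows, overlap of 1 bp, MANE Select starts, a score of at least 65.58 (the shLacZ median), the 3920 highest-scoring shRRN3 peaks and genes with no neighbouring start. On simulated lists over 20033 genes, 100% of planted start peaks were recovered for shLacZ and for shRRN3. The peaks were planted inside the start window, so this checked the window code and not the sensitivity of the real lists. Scripts ran in Python 3.11.15 with scipy 1.17.1 for intervals, pandas 2.3.3 for tables, matplotlib 3.10.9 for plots and numpy 2.4.6.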

Additional observations from a re-analysis of the deposited data

How the results depend on the processing

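Of 84 values under alternatives, 68 stayed within 1.5 times a count or within the interval of a median, and 16 moved beyond that. With the shRRN3 list reduced to as many peaks as shLacZ, start peaks in shRRN3 fell to 8 genes, in shRRN3 alone to 2 and in neither list rose to 41, body peaks fell to 4 genes (7.69%, against 6% of all genes) and end peaks to 1. The same alternative gave a shRRN3 start peak at 16 of the 86 other ribosome biogenesis genes and 4 of the 21 Pol I machinery genes. Over all genes the share was 9.74%. For start peaks in shRRN3 alone or in neither list, the shares over all genes are not given here for this alternative. By construction it drops lower-scoring peaks of one list. At scores of at least 65.58, shLacZ had start peaks at 5 genes (9.62% against 4.43% of all), of which 0 were its own, shRRN3 alone had 11 (21.2% against 14.2%), and body peaks were at 1 and 7 genes (1.92% and 13.5%, against 2.64% and 12.4%). Among the 32 genes with no other start within 1 kb, 15 had no start peak, 11 had one in shRRN3 alone and 0 in shLacZ alone. The first 2 of these are shares of 46.9% and 34.4%, beside 50% and 32.7% of the 52. Those counts thus moved with the smaller number of genes. Over all protein-coding genes with no other start within 1 kb, the shares were 79.7% and 14.1%. The median midpoint in shLacZ changed sign, as given above, within the interval of the median. Within 1 kb past the end, 4 genes had a shRRN3 peak, and the share over all genes is not given here. MANE Select starts moved no count of start peaks by more than 1.5 times. No paired analysis was possible because each hairpin had 1 library, and no replicate could be left out. The number of genes, 52, and of shLacZ start peaks, 9, limits the precision of each share.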
